A study of Bos taurus with 48 samples.

Results

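The genes described here are 10 genes of muscle atrophy and of the pathway of the FOXO transcription factors, FBXO32, TRIM63, FOXO1, FOXO3, FOXO4, DDIT4, PIK3IP1, KLF15, CTSL and EIF4EBP1, in cattle LTL muscle (longissimus thoracis et lumborum, the muscle of the loin). A probe belonged to a gene when its gene name, or the symbol in its description, was the gene's symbol. By this rule 7 of the 21475 probes of the array were chosen, for 6 of the 10 genes: FBXO32, TRIM63, DDIT4, KLF15, EIF4EBP1 and CTSL, which had 2 probes. The other 4 genes, FOXO1, FOXO3, FOXO4 and PIK3IP1, were present under older names with 6 probes, and their values are given apart from the counts over the 7 probes.

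RNA of 35 animals was measured on 48 arrays of 2 colours, so that each array gave 2 channels, each with RNA of 1 condition. The diet arrays compared Belmont Red cattle on a restricted diet, called a weight loss diet in the labels, with Belmont Red cattle on a growth diet at times 0, 1 and 2, on 4 arrays per time. The restricted animals were RL24, RL27, RL322 and RL671 at time 0, RL24 (on 2 arrays), RL27 and RL671 at time 1, and RL24 and RL27 (on 2 arrays each) at time 2. The growth animals were RG157, RG166, RG208 and RG604 at times 0 and 1, and RG166 and RG208 (on 2 arrays each) at time 2. The labels number the times and give no days, body weights or ages for them, nor which time follows deprivation or re-alimentation. A difference at time 0 is therefore not known to follow a period of weight loss. The study describes the diet experiment as nutritional deprivation and re-alimentation of adult cattle. Each time lay on 1 slide of its own, so time and slide cannot be told apart, but restricted and growth animals always met on the same arrays. The developmental arrays compared Piedmontese × Hereford with Wagyu × Hereford animals at 60, 135 and 195 days of gestation, at birth, and at 3, 7, 12, 20, 25 and 30 months of age. They held 27 animals, counting GP041A and GP041B at 195 days of gestation, which share a number, as separate fetuses, with 3 arrays per age up to birth and 4 arrays per age afterwards, and 8 of the 9 animals sampled after birth were on arrays of several ages. At 60 days of gestation each cross was 1 animal on 3 arrays.

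FBXO32 (atrogin-1) and TRIM63 (MuRF1) are muscle ubiquitin ligases that mark proteins for breakdown by the proteasome, and both are known as genes that rise when muscle wastes. The FOXO factors switch on these ligases and genes of autophagy, and they are held out of the nucleus by AKT when insulin and growth factors act through phosphoinositide 3-kinase. PIK3IP1 is an inhibitor of that kinase. DDIT4 (REDD1) restrains mTORC1, the kinase complex that drives protein synthesis, and EIF4EBP1 is a repressor of cap-dependent translation that mTORC1 switches off. KLF15 is a transcription factor induced by glucocorticoids, and CTSL, cathepsin L, is a protease of the lysosome.

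The array measures each gene through probes of 60 bases, and the probe decides which transcript is read. The probe of EIF4EBP1 and that of PIK3IP1 carry the clearest diet differences and are shown for that reason. The CTSL probes are shown because the gene has 2 that read unlike levels. One carries the name CTSL in the feature files but is assigned to CTSV in RefSeq, and is called CTSV from here on. The other has a locus number as its name and CTSL in its description. Their sequences were identical at 32 of the 50 bases that overlap at the best shift without gaps, or 64%. Capitals mark a run of 10 bases that the CTSV and CTSL probes share. Another shared run of the same length, at the end of the CTSV probe, is not marked. Each sequence runs from 5′ to 3′ as the feature files give it.
EIF4EBP1: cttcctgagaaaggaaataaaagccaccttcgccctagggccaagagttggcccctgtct
PIK3IP1: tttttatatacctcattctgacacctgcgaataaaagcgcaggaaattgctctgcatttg
CTSV: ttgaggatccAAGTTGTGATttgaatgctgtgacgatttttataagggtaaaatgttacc
CTSL: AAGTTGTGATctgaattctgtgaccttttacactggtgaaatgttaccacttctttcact

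Levels are log2 normalised intensities, with the dye effect of each probe removed and the channels of an animal at a time averaged. Intensities of different probes are not on a common scale, so levels are compared only within a probe. The probes of FBXO32, DDIT4, CTSV, EIF4EBP1, FOXO1, FOXO3 and PIK3IP1 were above background in all 96 channels, that of TRIM63 in 95, that of KLF15 in 90 and that of CTSL in 80. Of the 3 FOXO4 probes, the one with the older name MLLT7 was above background in 96 channels and stands for the gene. The other FOXO4 probes were above background in 70 and 32 channels. KLF15 and CTSL were dim, and the offset used in the background correction makes differences of dim probes smaller than they are. The number of arrays limits the precision of every value.

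The tissue label was checked against muscle fibre markers (ACTA1, CKM, DES, MB, MYH1, MYH7, TNNT1, TNNT3 and TTN, 11 probes), and 2 sets of samples stood apart. At 135 days of gestation the mean level of these 11 probes was 9.29 in the Piedmontese × Hereford fetus GP672 and between 13.39 and 14.04 in the other 4 fetuses. Called differences of the 10 genes that involve that age are therefore given with and without GP672. The mean level of 5 adipocyte probes was 13.58 in 1 Piedmontese × Hereford fetus of that age. It was 8.42 and 9.63 in the other Piedmontese × Hereford fetuses and 9.59 and 9.60 in the Wagyu × Hereford fetuses. At diet time 1 the muscle fibre list was at 14.80 to 15.08 in the 3 restricted animals and at 16.18 to 17.24 in the 4 growth animals. ACTA1, the actin of skeletal muscle fibres, was at 11.47 to 11.99 in the restricted animals and at 17.46 to 18.28 in the growth animals of that time. At times 0 and 2 the diets overlapped, with the list at 15.17 to 16.10 (restricted) against 15.74 to 16.14 (growth) at time 0 and at 16.08 to 16.15 against 15.89 to 16.10 at time 2.

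The diet comparison asked how these genes differ between muscle of animals assigned to the restricted and to the growth diet. At time 0 FBXO32 and PIK3IP1 were 3.77-fold and 3.68-fold higher in restricted than in growth animals, while TRIM63, the ligase usually named together with FBXO32, did not pass the test. At time 1 EIF4EBP1, DDIT4 and KLF15 were higher in restricted animals. At time 2 no gene of the list passed the test.

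FBXO32 at time 0 was at 15.92 in RL24, 15.80 in RL27, 15.95 in RL322 and 15.94 in RL671. In the growth animals it was at 14.28 in RG157, 14.54 in RG166, 12.71 in RG208 and 14.42 in RG604. The restricted animals lay within a narrow range above every growth animal, and RG208 lay apart below the other growth animals. The difference was 1.91 on the log2 scale (SE 0.38, 95% interval 1.13 to 2.70, adjusted p = 0.00311, limma). That is a 3.77-fold higher level in restricted animals. The call was lost when time 0 was fitted alone on animal means (difference 1.91, adjusted p = 0.0759). At time 1 FBXO32 was at 15.35 to 15.63 in restricted and 14.52 to 15.33 in growth animals, ranges that did not overlap by a small margin, and the difference of 0.42 (SE 0.39) did not pass (adjusted p = 0.446; 0.56 and 0.0192 without RG208). At time 2 the restricted animals, at 15.12 and 14.57, lay between the growth animals, at 14.25 and 15.31.

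TRIM63 at time 0 was at 15.11 in RL24, 14.34 in RL27, 15.30 in RL322 and 15.58 in RL671. The growth animals RG157, RG166, RG208 and RG604 were at 15.86, 16.32, 15.26 and 16.08. The groups overlapped, and the restricted minus growth difference of -0.80 (SE 0.32, 95% interval -1.46 to -0.14) had an adjusted p of 0.131. It passed without RG208 (-1.08, adjusted p = 0.0429) or without RL671 (-1.04, adjusted p = 0.048). At time 1 the difference was 0.12 (SE 0.33, adjusted p = 0.819). At time 2 both restricted animals (14.72 and 14.76) lay below both growth animals (15.20 and 15.91), with a difference of -0.77 (SE 0.35) and an adjusted p of 0.507. The 2 ligases thus differed in the sign of their values at time 0.

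PIK3IP1 at time 0 was at 11.16, 11.64, 11.61 and 11.86 in the restricted animals RL24, RL27, RL322 and RL671. In the growth animals RG157, RG166, RG208 and RG604 it was at 10.15, 9.42, 9.80 and 9.37. The groups did not overlap and lay about a log2 unit apart at their nearest animals. The difference was 1.88 (SE 0.24, 3.68-fold, adjusted p = 0.00012, limma). At times 1 and 2 the differences were -0.24 (SE 0.24, adjusted p = 0.508) and -0.40 (SE 0.26, adjusted p = 0.682).

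The FOXO factors themselves did not pass the test at any diet time in the fit reported, though each of the 3 genes passed in some alternative. FOXO1 at time 0 was at 8.98, 8.34, 8.88 and 10.05 in RL24, RL27, RL322 and RL671, and at 10.25 to 10.67 in the 4 growth animals. No restricted animal reached the lowest growth animal, but the difference of -1.43 (SE 0.53, 95% interval -2.54 to -0.31) had an adjusted p of 0.106. It passed in fits on the log ratios within arrays (adjusted p = 0.0412) and on the deposited log ratios (adjusted p = 0.0328). Those 2 fits had no term for the animal, so repeat arrays of an animal counted as independent. The FOXO1 difference also passed without RL671 (-1.80, adjusted p = 0.0339). FOXO1 at time 1 spread from 9.46 to 11.89 in restricted and from 8.64 to 11.36 in growth animals. FOXO3 differed by -0.27 (SE 0.20), 0.42 (SE 0.21) and -0.29 (SE 0.22) at times 0, 1 and 2, with adjusted p of 0.497, 0.144 and 0.74, and at time 1 it passed with channels centred on their medians (0.71, adjusted p = 0.00776). The MLLT7 probe of FOXO4 differed by 0.20 (SE 0.12), 0.31 (SE 0.12) and 0.09 (SE 0.13), with adjusted p of 0.328, 0.0562 and 0.887. At time 1 it passed with quantile normalization (adjusted p = 0.0398), with channels centred on their medians (0.63, adjusted p = 0.00401) and without RL27 (0.35, adjusted p = 0.0278). The other FOXO4 probes differed by 0.03 to 0.21 at the 3 times, none past the threshold.

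EIF4EBP1 at time 1 was at 13.79 in RL24, 14.91 in RL27 and 15.18 in RL671. In the growth animals it was at 12.63 in RG157, 13.62 in RG166, 13.03 in RG208 and 12.58 in RG604. Every restricted animal was above every growth animal, with RL24 and RG166 closest. The difference was 1.60 (SE 0.33, 95% interval 0.92 to 2.28, 3.04-fold, adjusted p = 0.00114, limma). At time 0 the groups overlapped (12.77 to 14.17 against 12.63 to 13.69) and the difference was 0.40 (SE 0.32, adjusted p = 0.532). At time 2 the restricted animals RL24 and RL27, at 13.31 and 13.12, lay below the growth animals RG166 and RG208, at 13.98 and 13.80. That difference of -0.41 (SE 0.35) had an adjusted p of 0.778.

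DDIT4 at time 1 was at 17.14 in RL24, 15.94 in RL27 and 15.95 in RL671, against 15.75, 15.55, 15.65 and 15.44 in RG157, RG166, RG208 and RG604. The restricted animals lay above the growth animals, RL24 by far the most. The difference was 0.89 (SE 0.24, 1.85-fold, adjusted p = 0.00921, limma), and without RL24 it was 0.18 with an adjusted p of 0.53, so the call rested on that animal. At time 0 the groups did not overlap either (15.64 to 15.92 against 14.66 to 15.57), with a difference of 0.67 (SE 0.23) and an adjusted p of 0.0839 (0.72 and 0.019 without RL24). At time 2 the difference was 0.46 (SE 0.26, adjusted p = 0.606).

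KLF15 at time 1 was at 9.44 in RL24, 9.38 in RL27 and 8.12 in RL671, against 8.36, 7.48, 8.63 and 8.22 in RG157, RG166, RG208 and RG604. The groups overlapped, since RL671 lay below 3 of the growth animals. The difference of 0.96 (SE 0.32, 1.95-fold) had an adjusted p of 0.0297 (limma). It lost the call in 5 of 12 alternative settings, among them the RNA sample as a further random effect (0.86, adjusted p = 0.0804), and when any of RL24, RL27, RG157, RG166 or RG604 was left out. With RL24 left out it was 0.54 (adjusted p = 0.329). At times 0 and 2 the differences were -0.44 (SE 0.31, adjusted p = 0.459) and -0.61 (SE 0.34, adjusted p = 0.606).

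The cathepsin probes had small differences. CTSV differed by -0.15, -0.21 and -0.24 at times 0, 1 and 2 (SE 0.19, 0.19 and 0.21), and CTSL by -0.16, -0.43 and -0.11 (SE 0.19, 0.20 and 0.21). None of these passed the test, the lowest adjusted p being 0.115 for CTSL at time 1, where CTSL passed without RG604 (-0.50, adjusted p = 0.0303). The 95% interval of the CTSV difference at time 1 ran from -0.61 to 0.20.

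**Figure D1:**
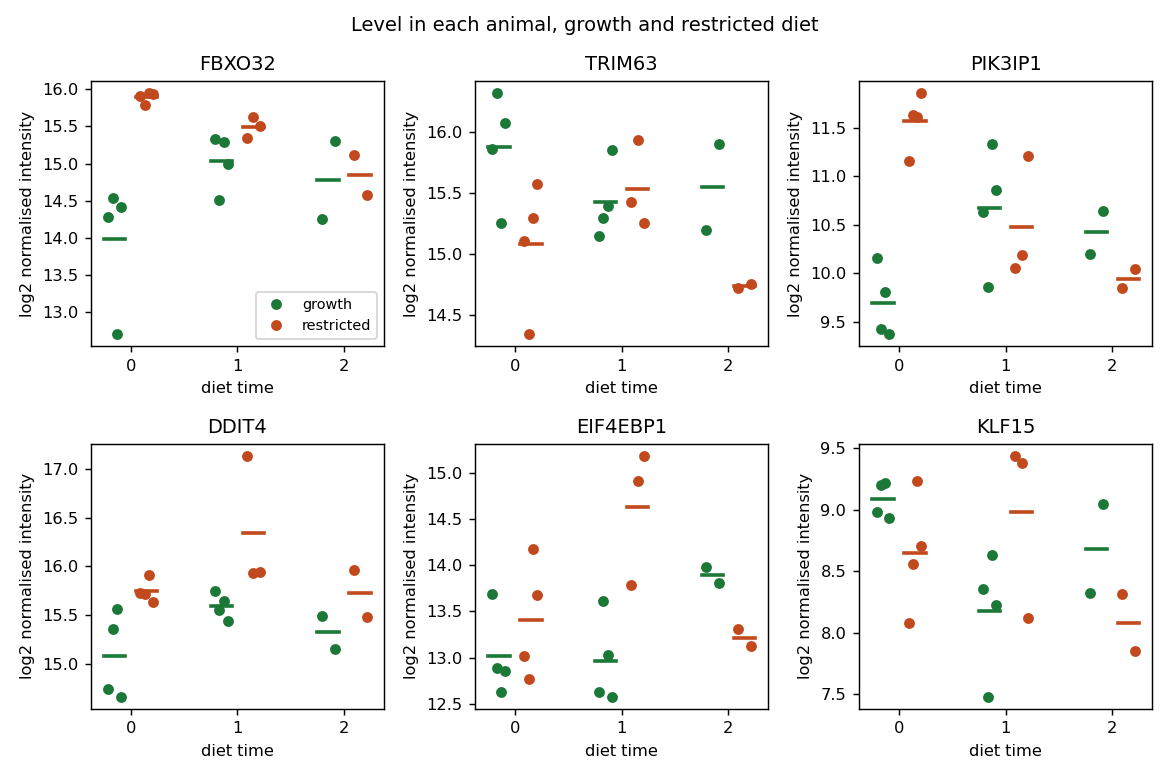
Log2 normalised intensity of 6 genes (y axis) in each animal (points) on the growth and the restricted diet at diet times 0, 1 and 2 (x axis), with bars for the group means. At time 0 all restricted animals lie above all growth animals for FBXO32, PIK3IP1 and DDIT4, and at time 1 for EIF4EBP1, DDIT4 and, by a small margin, FBXO32. DDIT4 at time 0 and FBXO32 at time 1 did not pass the test.

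Over the 7 probes chosen by the rule, 1 passed the test at time 0, 3 at time 1 and 0 at time 2. Over all 15816 probes tested, 8.59% passed at time 0, 28.1% at time 1 and 0.0569% at time 2, and with only 7 probes these shares are not read as a result about the list. At time 2, where limma called 0 of the 7 probes, 1 (TRIM63) had an unadjusted p below 0.05, and the alternative fits called 0 as well. The median difference of the 7 probes was -0.15, 0.42 and -0.24 at the 3 times, against medians of -0.01, 0.00 and 0.01 over all probes.

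**Figure D2:**
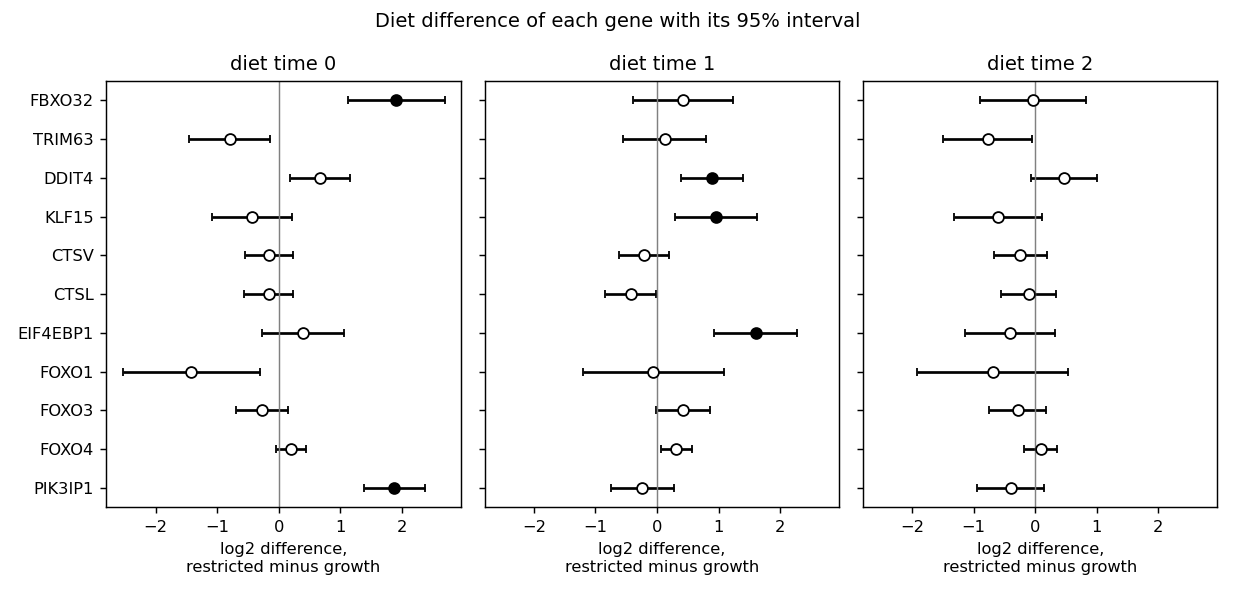
Log2 difference, restricted minus growth (x axis), of each gene (y axis) at diet times 0, 1 and 2 with its 95% interval; filled points passed the test. Filled points are FBXO32 and PIK3IP1 at time 0 and EIF4EBP1, DDIT4 and KLF15 at time 1, and there are none at time 2.

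Whether a diet difference changed from one time to the next was tested directly, with the limit that each time is a slide. From time 0 to time 1 the difference of PIK3IP1 changed by -2.12 (SE 0.26, adjusted p = 1.03e-05, limma), and that of FBXO32 by -1.49 (SE 0.41, adjusted p = 0.00908). Over the same step the differences of KLF15, EIF4EBP1, TRIM63 and FOXO3 changed by 1.40, 1.21, 0.92 and 0.69 (adjusted p = 0.00367, 0.0115, 0.0477 and 0.0227). From time 1 to time 2 those of EIF4EBP1, KLF15 and FOXO3 changed by -2.01, -1.58 and -0.71 (adjusted p = 0.000445, 0.00274 and 0.0289). Of the 7 probes of the rule, 4 passed for the first step and 2 for the second, where 31% and 25.1% of all probes did. The change of PIK3IP1 was called in every alternative run, while that of FBXO32 was lost without RL24 (-1.20, adjusted p = 0.16) and in 3 of 11 alternative settings. The change of EIF4EBP1 to time 1 was lost without RG157 (0.92, adjusted p = 0.0576) and on animal means. That of KLF15 was lost in 3 of 11 settings and without RL24 (0.75, adjusted p = 0.2) for the first step, and in 4 of 11 settings and without RL24 (-1.34, adjusted p = 0.0586) or RL27 (-1.11, adjusted p = 0.0828) for the second. TRIM63 lost its call in 5 of 11 settings and with 5 of 8 animals left out (0.39, adjusted p = 0.362, without RL27), and FOXO3 in 4 of 11 settings and with 4 of 8 animals left out at either step. With the RNA sample as a further random effect, which counts repeat channels of 1 sample together, the changes of TRIM63 and FOXO3 and the second change of KLF15 were among those lost (adjusted p = 0.106 for TRIM63, 0.0854 and 0.191 for FOXO3, and 0.105 for KLF15).

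At time 1 markers of muscle and of other tissues also differed between the diets, and most of those called were lower in restricted animals. Of the 11 muscle fibre probes 8 were lower and 1, DES, was higher in restricted animals (median difference -1.53). Of 7 connective tissue probes (COL1A1, COL1A2, COL3A1, DCN, FN1 and LUM) 6 were lower, with a median difference of -4.02 and a list level of 9.76 to 10.58 in restricted against 12.27 to 13.83 in growth animals. Of 4 endothelial probes 2 were lower, and 0 of 5 adipocyte, 0 of 3 blood and 0 of 5 immune probes passed the test, with 2, 0 and 3 at an unadjusted p below 0.05. In these whole tissue samples fewer cells of a type and less RNA per cell cannot be told apart. The part of these shifts in the time 1 values of EIF4EBP1, DDIT4 and KLF15 was not tested. At time 0, where FBXO32 and PIK3IP1 were higher, 0 of 11 muscle fibre and 0 of 7 connective tissue probes passed, with 0 and 1 at an unadjusted p below 0.05. At that time 1 of 4 endothelial probes was lower and 1 of 5 immune probes higher.

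The other genes of these pathways were taken from 7 lists, all of them chosen with earlier results of these data known. Their counts stand against 8.59% of all probes called at time 0, 28.1% at time 1, and 31% and 25.1% for the changes to time 1 and to time 2. The ubiquitin list, of other muscle ubiquitin ligases and their partners, had 25 probes tested. At time 0, 3 were higher and 2 lower in restricted animals. NEDD4, a ligase of the HECT family, was higher by 1.01 (SE 0.22) and, with its other probe, by 0.90. FBXO30 was higher by 0.86 (SE 0.23, adjusted p = 0.0231). BAG3, a chaperone partner in the clearance of damaged fibre proteins, was lower by 1.32 on the log2 scale (difference -1.32, SE 0.15), and TRIM54, a close relative of TRIM63, had a difference of -1.10 (SE 0.34, adjusted p = 0.0495). At time 1, 4 probes of this list were higher (NEDD4, CBLB, STUB1 and FBXO21) and 2 lower (UBE2B and TRIM32), 6 of 25 where 28.1% of all probes passed.

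The glucocorticoid list held 14 tested probes of genes linked to the response to the hormone, the background to KLF15. At time 0, 5 were lower in restricted animals and 0 higher, with a median of -0.71 against -0.01 over all probes. They were ERRFI1 (-1.83, SE 0.28), MT2A (-1.35, SE 0.37), FKBP5 (-1.26, SE 0.36), ZBTB16 (-0.88, SE 0.20) and BCAT2 (-0.87, SE 0.18). At time 1, 3 of 14 probes were higher and 0 lower, not above the 28.1% of all probes. They were the 2 probes of CEBPD, a transcription factor (2.15, SE 0.54, and 2.03, SE 0.41), and GLUL, the glutamine synthetase (1.03, SE 0.32). The diet difference rose from time 0 to time 1 for 7 of the 14 (31% of all probes passed in either direction), FKBP5 by 2.24 (SE 0.39), CEBPD by 2.89 and 2.31, ERRFI1 by 2.02 and GLUL by 1.55 among them. From time 1 to time 2 it fell for 4, with changes of -1.80 for FKBP5, -3.18 and -2.41 for CEBPD and -1.23 for GLUL.

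The autophagy and lysosome list had 24 probes tested, of which 1 was higher at time 0 and 10 were higher and 2 lower at time 1, with a median of 0.32 (28.1% of all probes passed at time 1). The higher ones at time 1 included GABARAP, which coats autophagosomes (1.22, SE 0.14), the lysosomal cathepsins CTSD (0.92, SE 0.18) and CTSB (0.71, SE 0.11), and WIPI1 (0.83, SE 0.12). The lower ones were ULK1, the kinase that starts autophagy (-0.77, SE 0.14), and MAP1LC3A (-1.03, SE 0.31). From time 1 to time 2 the diet difference fell for 11 probes and rose for 1, with changes of -1.47 (SE 0.16) for GABARAP and -1.70 (SE 0.39) for GABARAPL1.

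The insulin and AKT list of 20 tested probes had 0 called at time 0 by limma, with 1 at an unadjusted p below 0.05. At time 1, 5 were higher, namely the 3 probes of PIK3R1, a regulatory subunit of phosphoinositide 3-kinase (1.22, 0.83 and 0.73), the receptor IGF1R (1.09, SE 0.23) and the adaptor IRS2 (0.74, SE 0.22). TRIB3, an AKT inhibitor, was lower (-0.57, SE 0.21). From time 1 to time 2 the PIK3R1 difference changed by -1.34 (SE 0.22) and that of TRIB1 by 1.18 (SE 0.35).

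Of the 21 tested probes of the mTORC1 list, which holds the partners of DDIT4 and EIF4EBP1, 1 was higher and 2 were lower at time 0. DDIT4L, the close relative of DDIT4, was higher by 1.19 (SE 0.24), and EIF4E, the cap-binding protein that EIF4EBP1 holds, had a difference of -0.84 (SE 0.24). At time 1, 4 were higher, among them TSC2 (0.75, SE 0.14) and the mTOR kinase, named FRAP1 on the array (0.61, SE 0.14). The 4 lower ones included SESN3 (-1.25, SE 0.29) and EEF2K (-0.74, SE 0.11).

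Of the 15 tested probes of other known FOXO targets, 1 was higher at time 0, CCNG2, a cyclin that accompanies cell cycle arrest (1.74, SE 0.33). At time 1, 4 were higher, with BCL6, a transcriptional repressor, in the lead (1.82, SE 0.21), and 2 lower, SOD2 (-1.16, SE 0.20) and PPARGC1A (-0.75, SE 0.18). The diet difference of CCNG2 changed by -2.21 (SE 0.36) and that of BCL6 by 2.18 (SE 0.23) from time 0 to time 1. Over the same step that of SESN3, a gene of the mTORC1 list, changed by -1.79 (SE 0.31). The calpain list had 0 of 5 probes called at time 0 (0 at an unadjusted p below 0.05). At time 1, CAPNS1 was higher (0.32) and CAST, the calpain inhibitor, had a difference of -0.58 (SE 0.16), and with channels centred on their medians 1 probe was higher and 0 lower. At time 2 limma called 0 probes of any of the 7 lists, with between 0 and 2 per list at an unadjusted p below 0.05. The largest values there were those of CEBPD (-1.03, SE 0.58), CAPN3 (0.85, SE 0.33) and GABARAPL1 (-0.82, SE 0.38), with adjusted p of 0.614, 0.441 and 0.523.

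**Figure D3:**
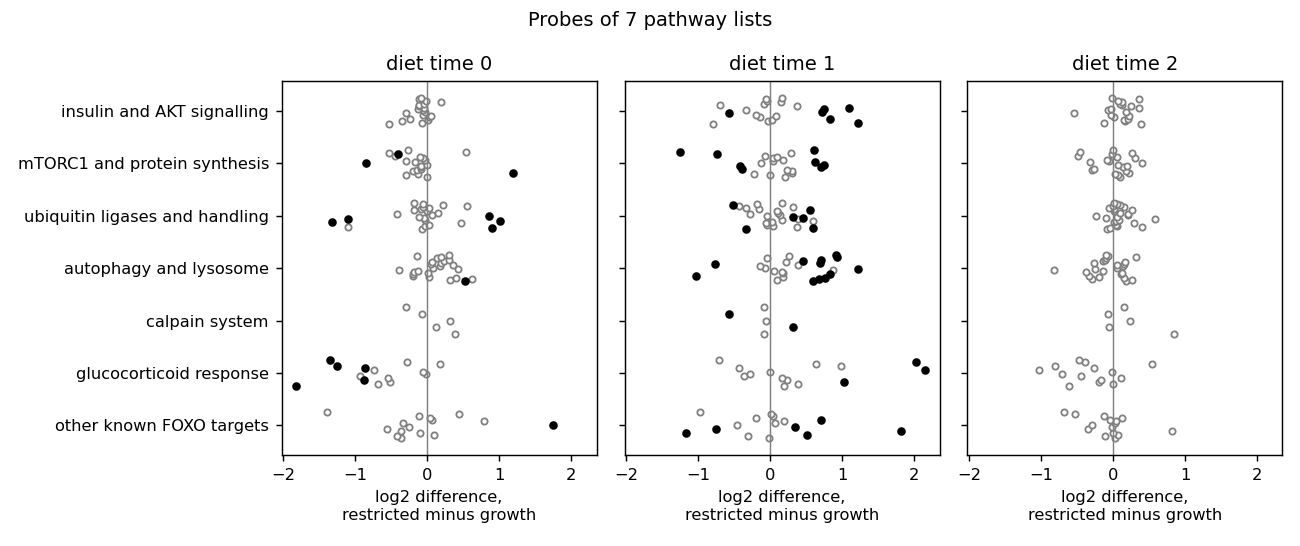
Log2 difference, restricted minus growth (x axis), of every tested probe (points) of 7 pathway lists (y axis) at diet times 0, 1 and 2; filled points passed the test. At time 0 the filled points of the glucocorticoid list all lie below 0, at time 1 most of those of the autophagy list lie above 0, and at time 2 none is filled.

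The developmental arrays show the level of the same genes over 10 ages, tested over 15739 probes. All 7 probes of the rule differed between ages (F test, limma), where 93.1% of all probes did, so this says little about the list. The main feature was a rise between 195 days of gestation and birth, when 5 of the 7 passed the test, all upwards, against 62.4% of all probes. Levels below are the mean ± SD over animals, and n is the number of animals.

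FBXO32 was at 9.57 ± 0.18 (n = 2) at 60 days of gestation, 10.72 ± 0.83 (n = 5) at 135 days and 11.22 ± 0.45 (n = 5) at 195 days, and then at 14.72 ± 1.06 (n = 6) at birth. The step from 60 to 135 days was 1.18 (SE 0.52, adjusted p = 0.109). Without GP672, which was at 9.32 while the other 4 fetuses lay between 10.63 and 11.40, it was 1.54 and passed (adjusted p = 0.0182). The step to birth was 3.49 on the log2 scale (SE 0.47, 11.3-fold, adjusted p = 3.32e-09), and the animals of the 2 ages did not overlap. After birth the means ran from 14.31 ± 1.07 (n = 8) at 3 months to 15.71 ± 0.15 (n = 8) at 30 months. No step between neighbouring ages after birth passed the test for FBXO32. From birth on, no neighbours in the order of its means differed beyond the SD.

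TRIM63 showed the steepest rise before birth. It was at 8.96 ± 0.07 (n = 2), 9.24 ± 1.51 (n = 5), 11.47 ± 0.34 (n = 5) and 16.07 ± 0.86 (n = 6) at 60, 135 and 195 days and in newborn animals. The wide spread at 135 days came from GP672, which was at 6.56 and not above background, while the other 4 fetuses lay between 9.62 and 10.13. The step from 60 to 135 days was 0.35 (SE 0.48, adjusted p = 0.722), and 1.01 without GP672, where it passed (adjusted p = 0.0407). The step from 135 to 195 days was 2.19 (SE 0.44, adjusted p = 0.000168), and 1.55 (adjusted p = 0.000709) without GP672. With channels centred on their medians it lost the call (2.03, adjusted p = 0.295). The step from 195 days to birth was 4.57 (SE 0.44, 23.7-fold, adjusted p = 5.28e-14). After birth the TRIM63 means were 15.85 ± 0.63 (n = 8) at 3 months, 14.40 ± 0.29 (n = 8) at 20 months and 15.20 ± 0.38 (n = 8) at 30 months, with no step between neighbouring ages past the threshold in the fit reported. The step from 3 to 7 months, -0.93 (SE 0.33, adjusted p = 0.0632), passed with the slide as a block (adjusted p = 0.0357), with quantile normalization (adjusted p = 0.0368) and on animal means (adjusted p = 0.00601), and without GP672, GW212 or GW245. Among the ages from birth on, the gap below 3 months in the order of the means was the only one larger than the SD.

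DDIT4 was at 12.36 ± 0.08 (n = 2), 12.93 ± 0.10 (n = 5) and 12.91 ± 0.22 (n = 5) before birth and at 15.28 ± 0.41 (n = 6) at birth, a step of 2.35 (SE 0.39, 5.10-fold, adjusted p = 4.14e-07). From birth on its means stayed between 14.83 and 15.55, and no neighbours in their order differed beyond the SD. KLF15 rose by 1.94 (SE 0.26, adjusted p = 3.9e-09) to birth, from 7.20 ± 0.18 (n = 5) to 9.15 ± 1.41 (n = 6), and fell again by 0.95 on the log2 scale (SE 0.24, adjusted p = 0.00117) to 3 months. Without the newborn GW146 the latter change was -0.51 and still called (adjusted p = 0.0191). With channels centred on their medians it lost the call (-0.84, adjusted p = 0.126), and this step also changes slides. Before birth KLF15 was above background in only 12 of 18 channels. Its newborn animals spread from 7.00 to 10.56, the widest range of any age for this gene.

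EIF4EBP1 followed another course. It rose before birth, by 1.30 (SE 0.32, adjusted p = 0.00148) from 60 to 135 days, from 12.37 ± 0.26 (n = 2) to 13.65 ± 0.42 (n = 5). Without GP672 that step was 1.41 (adjusted p = 0.000463), but it lost the call without GP663, 1 of the 2 fetuses at 60 days (0.94, adjusted p = 0.119), and with channels centred on their medians (1.04, adjusted p = 0.431). From birth to 3 months it changed by -1.35 (SE 0.26, adjusted p = 3.37e-05), a step that also changes slides. The steps to 12, 20 and 30 months were 0.65 (SE 0.22, adjusted p = 0.0463), -1.18 (SE 0.22, adjusted p = 0.000188) and 0.67 (SE 0.21, adjusted p = 0.0283). The step to 12 months was lost in 2 of 10 settings and with 10 of 27 animals left out (adjusted p up to 0.0883, without GP112), and that to 30 months in 1 of 10 settings and with 3 animals left out (GP130, GP201 or GP285, adjusted p up to 0.0684). EIF4EBP1 also lost the call of its step to 20 months with channels centred on their medians (-1.18). Its lowest mean was 11.90 ± 0.55 (n = 8) at 25 months, within the SD of the mean at 20 months.

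The 2 cathepsin probes differed in course. CTSV was highest before birth, at 12.03 ± 0.04 (n = 2) and 12.11 ± 0.28 (n = 5), and changed by -0.57 (SE 0.17, adjusted p = 0.0116) between 135 and 195 days of gestation. Without GP672 that change was -0.46 (adjusted p = 0.0453), and without GP041A it lost the call (-0.48, adjusted p = 0.0719). It also lost the call with channels centred on their medians (-0.51). Afterwards CTSV lay between 11.27 and 11.70 in mean. CTSL was dim at every age, with means between 7.07 and 7.62. Its step to birth of 0.50 (SE 0.16, adjusted p = 0.00627) was lost without the newborn GP193 (0.22, adjusted p = 0.0877). The step was also lost with channels centred on their medians (0.60, adjusted p = 0.137).

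FOXO1 was at 8.31 ± 0.20 (n = 5) at 195 days of gestation, 10.20 ± 0.93 (n = 6) at birth and 10.46 ± 0.47 (n = 8) at 3 months. It then changed by -1.68 (SE 0.31, adjusted p = 0.000167) between 7 and 12 months, to 8.14 ± 0.20 (n = 6), and by 1.44 (SE 0.30, adjusted p = 0.000554) between 25 and 30 months, to 9.78 ± 0.44 (n = 8). With channels centred on their medians the FOXO1 step from 7 to 12 months lost the call (-1.7, adjusted p = 0.845). At 7 months the animals spread from 7.98 to 11.64. FOXO3 rose by 1.25 (SE 0.29, adjusted p = 0.000181) to birth, reached 14.44 ± 1.03 (n = 6) there and changed by -0.94 (SE 0.27, adjusted p = 0.00378) to 3 months. That change was lost without GW146 (-0.57, adjusted p = 0.0513) and with channels centred on their medians (-1.49, adjusted p = 0.0674). This step also changes slides. The MLLT7 probe of FOXO4 rose from 60 to 135 days by 0.91 (SE 0.20, adjusted p = 0.000414, and 1.18 without GP672). From birth to 3 months, where the slides change, it rose by 0.72 (SE 0.17, adjusted p = 0.000369). With channels centred on their medians both steps lost the call (0.73, adjusted p = 0.534, and 0.42, adjusted p = 0.75).

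PIK3IP1 ranged from 9.11 ± 0.30 (n = 2) at 60 days of gestation to 10.84 ± 0.66 (n = 8) at 30 months. Its step from 60 to 135 days, 1.06 (SE 0.40, adjusted p = 0.048), was lost in 5 of 10 settings and with 15 of 27 animals left out. It was 0.92 (adjusted p = 0.0847) without GP672, 0.93 (adjusted p = 0.199) without GW911 and 1.19 (adjusted p = 0.122) without GP663, the last 2 being the only fetuses of 60 days. With GP041A and GP041B counted as 1 animal it had an adjusted p of 0.0509. The restricted animals of diet time 0 lay at 11.16 to 11.86, and the highest developmental animal at 11.61. The diet and developmental animals differ in breed and slide and were fitted apart, so these levels cannot be compared directly.

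**Figure D4:**
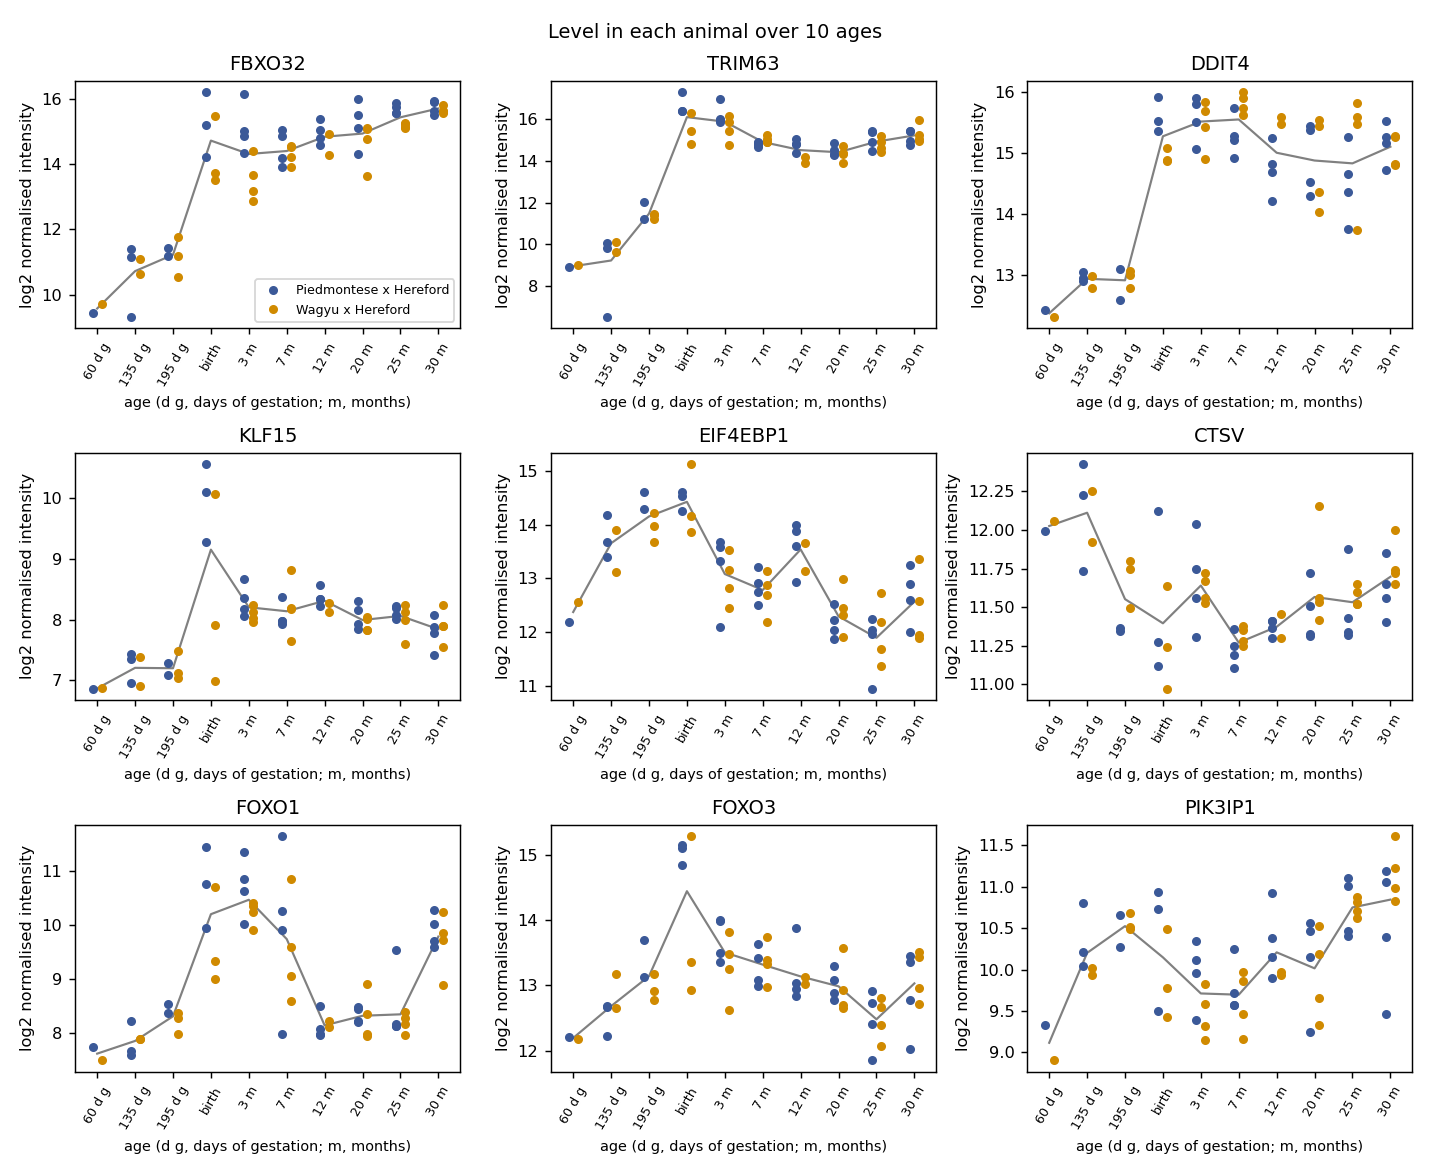
Log2 normalised intensity of 9 genes (y axis) in each animal (points, coloured by cross) over 10 ages from 60 days of gestation to 30 months (x axis), with a line through the age means. FBXO32, TRIM63 and DDIT4 rise between 195 days of gestation and birth, and the low TRIM63 point at 135 days is GP672.

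The share of probes past the threshold and the number of the 7 that passed differed from step to step. Before birth 1 passed from 60 to 135 days and 2 from 135 to 195 days, against 20.2% and 19% of all probes. Without GP672, 3 passed from 60 to 135 days (EIF4EBP1, FBXO32 and TRIM63), against 23.1%. From birth to 3 months 2 passed, against 41.5%. From 3 to 7 months limma called 0 of the 7 (2 at an unadjusted p below 0.05), against 9.24% of all probes. With the slide as a block, TRIM63 (-0.93, adjusted p = 0.0357) and CTSV (-0.36, adjusted p = 0.0297) passed at that step. From 7 to 12, 12 to 20 and 25 to 30 months 1 passed at each step, in every case EIF4EBP1, against 9.04%, 7.08% and 11.8%. From 20 to 25 months 0 passed, with 0 at an unadjusted p below 0.05, against 4.57%, and this step too changes slides.

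The mean of the 6 ages after birth was compared with that of the 3 fetal ages. FBXO32 was higher after birth by 4.43, TRIM63 by 5.0, DDIT4 by 2.39 and KLF15 by 1.00, while CTSV and EIF4EBP1 differed by -0.37 and -0.72. These 6 of the 7 probes passed the test, as did 79.8% of all probes, and the median of the 7 was 1.00 against 0.04. CTSV and EIF4EBP1 lost the call with channels centred on their medians (-0.34 and -0.41, adjusted p = 0.195 and 0.175). FOXO1, FOXO3 and the MLLT7 probe of FOXO4 were higher by 1.19, 0.37 and 0.96, FOXO3 with a call lost when any of 7 of the 27 animals was left out (adjusted p up to 0.102, without GP201). Without GP672 the differences were 4.30 for FBXO32, 4.77 for TRIM63, 2.39 for DDIT4, 1.02 for KLF15, -0.34 for CTSV and -0.76 for EIF4EBP1. For FOXO1, FOXO3 and the MLLT7 probe they were then 1.21, 0.35 and 0.87, and all of these kept the call. Muscle fibre probes were higher after birth in 10 of 11 cases (median 2.77), connective tissue probes lower in 7 of 7 (median -2.60) and blood probes lower in 3 of 3 (median -3.11). The part of these shifts in the values of FBXO32 and TRIM63 was not tested, and the slides of the 2 periods differ. Of the pathway lists, 17 of 23 ubiquitin probes were higher and 4 lower, with TRIM54 higher by 3.50 and 3.48 and the conjugating enzyme UBE2D1 by 2.95. Of 13 glucocorticoid probes 9 were higher and 2 lower, led by CEBPB (3.86), ZBTB16 (3.53) and FKBP5 (2.72). Of 13 FOXO targets 10 were higher and 1 lower, with PDK4, which spares glucose in the fasting state, higher by 4.80 (SE 0.40). Of 24 autophagy probes 15 were higher and 5 lower, with WIPI1 higher by 2.86 (SE 0.09). The counts of these lists stand against the 79.8% of all probes that passed.

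The crosses were compared before birth, at birth and after birth. At birth KLF15, CTSL and FOXO3 were higher in Piedmontese × Hereford than in Wagyu × Hereford newborn animals, and no gene of the list passed the test between the crosses before or after birth. KLF15 was at 10.56, 10.11 and 9.28 in the Piedmontese × Hereford animals GP147, GP148 and GP193, and at 7.91, 10.08 and 7.00 in the Wagyu × Hereford animals GW071, GW146 and GW175. The crosses overlapped through GW146, which lay with the Piedmontese × Hereford animals. The difference was 1.66 (SE 0.27, 3.15-fold, adjusted p = 5.01e-05, limma). It stayed called with each animal left out, at 1.10 without GW175 and 2.56 without GW146. Its SE rests on a spread shared by all ages, while the newborn SDs were 0.65 (Piedmontese × Hereford) and 1.58 (Wagyu × Hereford). The p-values of this comparison may therefore be too small, also with an animal left out.

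FOXO3 showed the same arrangement, with 14.84, 15.10 and 15.14 in GP147, GP148 and GP193 and 13.35, 15.29 and 12.93 in GW071, GW146 and GW175. Its difference of 1.17 (SE 0.30, adjusted p = 0.0103) lost the call when GW175, GW071 or GP193 was left out, and was 0.69 (adjusted p = 0.404) without GW175 and 1.92 without GW146. CTSL was at 7.33, 7.75 and 9.12 against 6.94, 7.39 and 6.83. Its difference of 1.01 (SE 0.17, adjusted p = 5.29e-05) was 0.46 and still called without GP193. The limit of the shared spread holds for FOXO3 and CTSL too. In the Piedmontese and Wagyu crosses the newborn SDs were 0.16 and 1.26 for FOXO3 and 0.94 and 0.30 for CTSL. Of the 7 probes 2 passed at birth (6.06% of all probes). Before birth limma called 0 of 7 (0 at an unadjusted p below 0.05, 1.61% of all probes passed), and after birth 0 of 7 (0 at an unadjusted p below 0.05, 0.0699% of all probes passed). TRIM63 and FBXO32 at birth differed by 1.18 (SE 0.45) and 0.97 (SE 0.49), with adjusted p of 0.106 and 0.267. Both passed without GW146, at 1.64 (adjusted p = 0.0237) and 1.62 (adjusted p = 0.0364). Of the marker lists at birth only 1 of 7 connective tissue probes passed, lower in Piedmontese × Hereford animals.

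**Figure D5:**
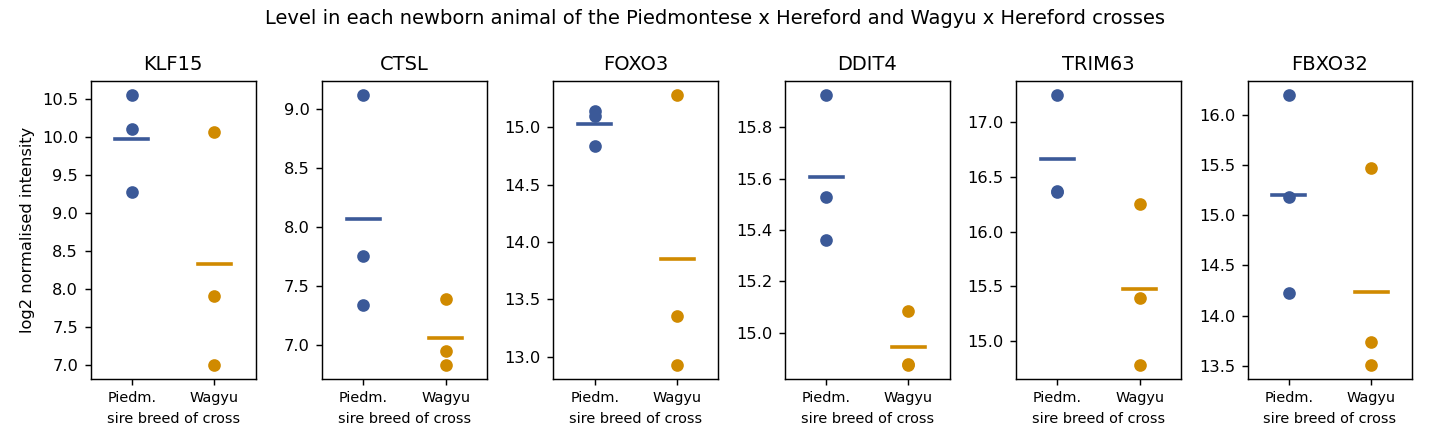
Log2 normalised intensity of 6 genes (y axes) in each newborn animal (points) of the Piedmontese × Hereford and Wagyu × Hereford crosses (x axis), with bars for the means of 3 animals. For KLF15 and FOXO3 a single Wagyu × Hereford animal, GW146, lies at the level of the Piedmontese × Hereford animals.

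Across the 26 condition means the patterns of the genes were compared as a description, and the large difference between fetal and later samples, together with shared arrays, enters every value. FBXO32 and TRIM63 had a Pearson correlation of 0.925 over the 26 conditions, 0.978 over the 8 conditions up to birth, 0.04 over the 12 conditions after birth and -0.48 over the 6 diet conditions. FBXO32 and PIK3IP1 correlated at 0.51 over the 26, at 0.863 over the 12 after birth and at 0.879 over the 6 diet conditions. The named genes most like TRIM63 over the 26 conditions were USP2 (0.984) and KLF9 (0.981), and those most like FBXO32 were PYURF (0.972) and ANKMY2 (0.971). DDIT4 was most like TXNIP (0.962) and SBDS (0.959), and KLF15 most like ARID5B (0.933) and KAT14 (0.931). EIF4EBP1 was most like NBR1 (0.848) and SLC43A1 (0.836), and CTSV most like TLR2 (0.862) and IL1R1 (0.855), all below the values of the other genes.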

How the data were processed

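The authors hybridised muscle RNA to Agilent bovine arrays with 2 dyes and deposited the scanner output. For every spot the authors deposited the mean raw intensity of either dye, as read by the software, a local background intensity (median), and flags for spots above background, saturated spots and outliers. The submitters' processing notes name Agilent Feature Extraction 9.5.1. The deposited log10 ratio of Cy5 over Cy3 per spot, after the dye normalization of that software, was used in an alternative only. The series table of ratios and the authors' own mixed model values were not used here. Condition, animal and dye of each channel came from the labels.

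Control and outlier spots were left out. Intensities were background corrected (normexp, offset 50), normalised by loess within and Aquantile between arrays with limma 3.58.1 (R 4.3.3), set to log2 and averaged per probe. Probes above background in at least 24 of 96 channels were kept, 15816 in the diet fit and 15739 in the fit of ages and crosses. Between 51.1% and 78.9% of the probes were above background in a channel (median 68%), and no member spot was saturated. Of the 21475 probes, 13808 were matched to the RefSeq table of gene names. Each fit had condition and dye as fixed effects and array and animal as random effects by restricted maximum likelihood. Their variances relative to the residual were 0.26 and 0.777 in the diet fit and 0.715 and 0.731 in the other. Whitened values were tested with limma (two-sided, Benjamini-Hochberg over all probes, threshold 0.05). Both channels of an array share a hybridisation, which is the pairing used, and replicate numbers pair no animals across conditions. The tests assume that all conditions of a fit share one spread. Repeat channels of an animal at a time are repeat measures of 1 RNA sample, which the reported fit separates only through the animal. With the RNA sample added as a random effect, its variance was 14.7 times the residual in the diet fit and 0.881 times in the other, so p-values that rest on repeat channels may be too small. The fitting was tested on simulated data.

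The text names every probe of the 10 genes and, from the pathway lists, at most 8 probes past the threshold per comparison by size of difference, or the 3 largest where none passed. The next ones named, such as NEDD4's other probe, FBXO30, ZBTB16, BCAT2, CTSD, CTSB, WIPI1, ULK1, MAP1LC3A, TSC2, EIF4E, EEF2K, TRIB3 and PPARGC1A, were added after their values were seen. For each of the 6 genes with a probe chosen by the rule, by its brightest probe, the 2 named genes with the highest correlation over the condition means are given. The genes and lists were chosen with earlier results of these data known. Alternatives covered background correction, normalization, the filter, several probes per gene, animal means without the array, log ratios within arrays, the slide, each animal left out and, chosen after seeing the data, the RNA sample as a random effect. The fits on log ratios had no term for the animal, so repeat arrays of an animal counted as independent. Promoter sequences were not used here.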

Additional observations from a re-analysis of the deposited data

Results flagged for a closer look

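In groups of 4 to 10 animals, 7 of 156 groups of a probe held an animal far from the rest by Dixon's criterion, where chance gives about 1 in 20. FBXO32 was at 12.7 in growth animal RG208 at diet time 0, and without that animal the diet difference was 1.43 and still called. CTSL was at 7.93 in growth animal RG604 at diet time 0. TRIM63 was at 6.56 and the MLLT7 probe of FOXO4 at 10.4 in fetus GP672 at 135 days of gestation, whose muscle fibre markers also stood apart (9.29 against 13.39 to 14.04). KLF15 was at 7.6 in GW245 and FOXO1 at 9.54 in GP112 at 25 months, and FOXO3 at 13.88 in GP201 at 12 months.

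The diet difference itself changed between times, by the test of that change, for 9 pairs of gene and step. From time 0 to time 1 the change was -1.49 for FBXO32, 0.92 for TRIM63, 1.40 for KLF15, 1.21 for EIF4EBP1, 0.69 for FOXO3 and -2.12 for PIK3IP1. From time 1 to time 2 it was -1.58 for KLF15, -2.01 for EIF4EBP1 and -0.71 for FOXO3. Each time is 1 slide and the animals differ in part between times, and at time 1 the muscle fibre and connective tissue markers also differed between the diets. Their part in these changes was not tested.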

How the results depend on the processing

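No difference of a member probe that was called in the fit reported changed sign under any alternative, and uncalled differences were not followed this way. The calls of PIK3IP1 at diet time 0 and of EIF4EBP1 at diet time 1 were kept in all 12 settings and with each of 8 animals left out, and those of FBXO32, TRIM63, DDIT4, KLF15, FOXO1 and FOXO3 from 195 days of gestation to birth in all 10 settings and 27 left out animals. Of the 7 probes of the rule, fitting each diet time alone on animal means called 0 at time 0 (1 in the fit reported) and 1 at time 1 (3 reported). Without the replicate block, on animal means, 1 was called at time 1, 0 for the change of the diet difference from time 0 to 1 (4 reported) and 0 from time 1 to 2 (2 reported). With log ratios, within-array or deposited, fitted per array with no term for the animal, 1 was called for each of these changes. With the RNA sample as a further random effect, chosen after seeing the data, 1 was called from time 1 to 2. With channels centred on their medians, 8 probes were called over the age steps (13 reported, 6 of them kept and 2 new) and 7 over those within slides (11 reported, 5 kept and 2 new). The cause of these shifts was not tested.

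With each animal left out, the probes called ranged from 1 to 2 at time 0, 1 to 4 at time 1, 0 to 0 at time 2, 1 to 4 and 1 to 3 for the changes, 6 to 7 over ages, 11 to 16 over age steps, 9 to 14 within slides, 2 to 4 for the crosses and 6 to 6 for after against before birth. Over all probes, fitting each time alone called 60 at time 0 (1358 reported) and 2029 at time 1 (4444 reported), and leaving out RL24 called 698 at time 0. At time 2, 0 to 12 were called over settings and 0 to 49 over left out animals (9 reported). Animal means called 1609 and 278 for the changes (4904 and 3963 reported), leaving out RG166 called 1427 for the second, and the RNA sample effect called 918, 3446 and 0 at the 3 times and 2449 and 803 for the changes. Channels centred on their medians called between 0 (4 steps from 3 to 25 months) and 5750 (25 to 30 months) per age step. The crosses at birth gave 322 to 1514 over settings, 152 without GW175 and 2081 without GW146 (954 reported). Before birth 2 to 650 were called (254 reported) and after birth 5 to 1116 (11 reported). The counts of 1514, 650 and 1116 came from the log ratios, fitted with no term for the animal. Centring channels on their medians moved the share of higher calls over all probes, from 48% to 36.3% at time 0, from 50.6% to 73.3% at time 1, from 49.7% to 76.2% and from 48.2% to 24.3% for the changes, from 49.9% to 33.9%, 47.9% to 34.1%, 51.9% to 21% and 52.7% to 84.1% for the steps to 135 days, 195 days, 3 months and 30 months, and from 54.5% to 72.2% for the crosses at birth. At time 2 and for the crosses after birth 9 and 11 probes were called, too few for such a share. The centring moved the median of all probes by over 0.1 for the change to time 1 (0.001 to 0.143) and the steps to birth (0.060 to 0.201), 25 months (-0.010 to -0.285) and 30 months (0.000 to 0.477), and for after against before birth (0.040 to 0.153).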

Other observations

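At the step from 195 days of gestation to birth, where FBXO32 and TRIM63 rose, 62.4% of all probes passed the test, and the counts of the pathway lists stand against that share. Of 13 tested probes of the glucocorticoid list, 10 were higher at birth and 0 lower, with a median difference of 3.38 on the log2 scale against 0.06 over all probes. Of 23 ubiquitin probes 11 were higher and 3 lower (median 0.41), of 24 autophagy probes 14 were higher and 6 lower (median 0.52), of 19 insulin and AKT probes 12 were higher and 1 lower (median 0.78), and of 13 other FOXO targets 9 were higher and 1 lower. The calpain list went the other way, with 4 of 5 probes lower and 0 higher, but with channels centred on their medians 0 of its 5 probes passed. In the same step 6 of 11 muscle fibre probes were higher, 7 of 7 connective tissue probes lower (median -3.03) and 3 of 3 blood probes lower (median -3.91), and their part in the list values was not tested.

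Between the crosses at birth, where KLF15 and FOXO3 were higher in Piedmontese × Hereford animals, 5 of 13 glucocorticoid probes were higher and 0 lower (median 0.96), and 7 of 24 autophagy probes were higher and 1 lower (median 0.20), where 6.06% of all probes passed. With channels centred on their medians these counts were 4 and 0, and 2 and 0. The number of probes called in that comparison depended on single animals, with 152 without GW175 and 2081 without GW146 (954 with all).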
